A study of Homo sapiens with 12 samples.

Results

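The genes described here are the developmental transcription factors of the HOX, SOX, FOX, PAX and T-box (TBX) families. They were chosen by symbol, as every measured gene named HOXA to HOXD, SOX, FOXA to FOXS, PAX or TBX followed by a number, which gave 106 of 14582 genes, each with 1 probe set. There were 40 FOX, 27 HOX, 19 SOX, 12 TBX and 8 PAX genes, and of the HOX genes 10 lay in the HOXB cluster, 9 in HOXD, 7 in HOXC and 1 in HOXA. A further 20 coding genes of these names, among them most of the HOXA cluster, TBX2 and FOXC1, were not analysed here. RNA came from SK-MEL-2, an established human melanoma cell line, 24 h after drug treatment, and was measured on 12 Affymetrix arrays. DT cells received dabrafenib (100 nM), a RAF inhibitor, and trametinib (10 nM), a MEK inhibitor. E cells received entinostat (1 µM), an inhibitor of class I histone deacetylases, DTE cells received all 3 agents, and DMSO cells received the vehicle, with 3 arrays in each group. All groups are 1 cell line, and the labels call the 3 arrays biological replicates in one place and technical in another, so every p-value here reflects array-to-array spread alone, which may be technical.

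As background, these families pattern the embryo and are used again to set and hold cell identity. HOX genes lie in clusters whose order matches the body axis, and Polycomb and trithorax proteins keep them silent or active. In the neural crest and its descendants, the melanocytes, PAX3, SOX10 and FOXD3 act early, and PAX3 and SOX10 together activate MITF, the master factor of pigment cells. FOXM1 drives mitotic genes, whereas FOXO factors act against growth and enter the nucleus when growth factor signalling is low. Histone deacetylase inhibitors raise histone acetylation and can open promoters that are silent in a cell.

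The deposited values are linear probe set intensities, and differences are given as log2 differences from limma with standard errors (SE). The overall level of the arrays differed by treatment. The gene median was 31.4 to 34.4 on the DT arrays, 39.4 to 51.6 on the E arrays and 22.9 to 25.1 on the DTE arrays, against 33.4 to 41.3 on the DMSO arrays. Over all genes the median log2 difference from DMSO cells was -0.12 in DT, 0.14 in E and -0.54 in DTE cells. DTE cells differed from DT cells by a median of -0.41 and from E cells by -0.82, and the interaction had a median of -0.63. Most differences are therefore given a second time after quantile normalization, which puts all arrays on 1 distribution and left these medians between -0.04 and 0.01. A member is said to have risen or fallen only where its adjusted p was under 0.05 in the same direction on both scales. The share of all genes that passed on both scales was not counted. Counts on both scales therefore cannot be compared with all genes, and only the counts of each single scale can. In RNA of whole cultures, fewer cells of a type and less RNA per cell cannot be told apart. The 7 melanocyte lineage markers measured were above background in every group, with summed intensities of 4205 to 4734 in DT, 4252 to 6092 in E and 2427 to 2630 in DTE cells, against 5044 to 5737 in DMSO cells. Of markers of other cell types, KRT14 (1 of 4 keratinocyte markers measured), LUM (1 of 2 fibroblast markers, above background in DTE cells alone), CD14 (leukocyte) and VWF (endothelial) were above background. The summed keratinocyte markers were 63.3 to 66.4 in DT, 45.2 to 54.7 in E and 38.3 to 43.1 in DTE cells, against 42.9 to 50.4 in DMSO cells. KRT14 was higher in DT cells (0.70, quantile 0.80). CD14 was higher in DT (0.90, quantile 1.02) and E cells (1.11, quantile 0.73), at 45.8 to 62.8 in DT and 53.2 to 69.2 in E, against 25.3 to 32.3 in DMSO cells. LUM passed the test in E and DTE cells at intensities of 10.6 to 15.9, and VWF, at 12.2 to 20.8, passed against DMSO only under DT after quantile normalization (0.32). The part of these markers in the results was not tested.

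Most of the family members gave a signal. A group mean above the background level (11.1 to 16.2 by array) was reached by 85 members (80.2%) in at least 1 group, against 77.7% of all genes, and by 76 members in all 4 groups. The other 21 members, with intensities of 4.17 to 16.5, were not well above background in any group. They were FOXA1, FOXB1, FOXE3, FOXN1, FOXP2, FOXQ1, FOXR1, HOXB1, HOXB2, HOXB8, HOXC11, HOXD9, PAX1, PAX2, PAX6, SOX1, SOX3, SOX11, SOX14, SOX21 and TBX5. The remaining 9 passed in some groups only. Among them HOXA2, which patterns the second pharyngeal arch, passed in DMSO cells alone, and FOXL1, FOXF2, HOXC10 and SOX2 passed in the 3 treated groups and not in DMSO cells.

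Promoter sequences are shown for 4 members that stand for the patterns described below. FOXD3 was higher in DT and lower in E and DTE cells, SOX4 was higher in DT cells, SOX5 was lower under each treatment, and FOXO1 was higher in E cells. RefSeq (GRCh38.p14) held a window from 250 bases before to 50 after the start for 69 of the 106 members. Each is printed 5′ to 3′ on the gene's strand, with every CpG in capitals. The windows lie at chr1:63322317-63322616 (FOXD3, plus strand), chr6:21593501-21593800 (SOX4, plus), chr12:24562442-24562741 (SOX5, minus) and chr13:40666592-40666891 (FOXO1, minus).
FOXD3: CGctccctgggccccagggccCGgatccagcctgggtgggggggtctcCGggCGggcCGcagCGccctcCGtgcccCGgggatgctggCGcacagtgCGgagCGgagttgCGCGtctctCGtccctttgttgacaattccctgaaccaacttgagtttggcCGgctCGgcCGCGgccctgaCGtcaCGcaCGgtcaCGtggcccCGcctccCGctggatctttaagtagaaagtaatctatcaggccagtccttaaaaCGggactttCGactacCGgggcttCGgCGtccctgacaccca
SOX4: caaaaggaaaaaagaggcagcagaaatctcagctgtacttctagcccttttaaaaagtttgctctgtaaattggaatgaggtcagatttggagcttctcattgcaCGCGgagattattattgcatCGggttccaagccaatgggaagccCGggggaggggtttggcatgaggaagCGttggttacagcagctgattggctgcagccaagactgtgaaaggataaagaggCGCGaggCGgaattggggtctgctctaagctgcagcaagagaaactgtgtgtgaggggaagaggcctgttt
SOX5: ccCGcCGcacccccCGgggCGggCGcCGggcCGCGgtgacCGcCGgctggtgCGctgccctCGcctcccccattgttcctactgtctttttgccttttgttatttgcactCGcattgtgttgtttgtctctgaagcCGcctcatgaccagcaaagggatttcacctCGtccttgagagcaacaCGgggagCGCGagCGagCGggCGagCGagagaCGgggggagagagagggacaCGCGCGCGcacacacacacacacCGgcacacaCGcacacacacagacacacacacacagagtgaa
FOXO1: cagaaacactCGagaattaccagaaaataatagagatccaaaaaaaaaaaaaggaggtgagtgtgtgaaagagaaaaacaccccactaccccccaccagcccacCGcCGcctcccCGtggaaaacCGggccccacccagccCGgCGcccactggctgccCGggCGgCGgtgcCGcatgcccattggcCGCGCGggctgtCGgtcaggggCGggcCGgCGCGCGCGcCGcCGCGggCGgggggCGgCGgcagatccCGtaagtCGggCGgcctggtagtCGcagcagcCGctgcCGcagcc

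The window of FOXO1 held 33 CpG, those of FOXD3 and SOX5 held 29 each, and that of SOX4 held 8. The median was 22 CpG over the 69 members and 14 over all 35116 RefSeq windows, and the median GC content was 64.7% and 58.7%. Members were limited to 1 window each, and the set of all RefSeq windows was not. Searched on both strands, the FOXD3 window held 1 E-box (CACGTG), a motif present in 7.26% of all windows and in 13% of the members' windows. The GC box (GGGCGG, which contains a CpG) occurred 5 times in the FOXO1 window, once each in FOXD3 and SOX5 and not in SOX4, against 45% of all windows with at least 1. The letters of the AP-1 site (TGANTCA), the ETS site (CCGGAAG), the M-box core (CATGTG), the TATA box (TATAAA) and the cell cycle element CHR (TTTGAA) were in none of these 4 windows.

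Under MAPK pathway inhibition (DT against DMSO), the neural crest factor FOXD3 rose 3.5-fold, SOX4, SOX6, FOXO4, HOXD3, FOXF2 and TBX15 rose less, and TBX3, FOXM1, FOXK1, HOXD13 and SOX5 were among those that fell. In deposited values 7 members were higher and 15 lower, with a median log2 difference of -0.08. Over all genes 4.72% were higher and 23.1% lower. After quantile normalization 16 members were higher and 10 lower (median 0.03), with 15.1% and 14.6% of all genes. On both scales together 7 rose and 10 fell. The members' deposited shares were 6.6% higher and 14.2% lower, the first a little above and the second below that of all genes. The deposited count of higher members was 4 without DT array 1 or DT array 3, and that of lower members was 8 without DMSO array 1 and 9 without DT array 2.

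Under histone deacetylase inhibition (E against DMSO), 13 members passed the test as higher on both scales, among them HOXB9, HOXB13, TBX15, FOXO1 and FOXD1, and 7 fell, among them HOXC8, FOXD3, SOX5, FOXN2 and TBX22. Of the 13, 11 were above background in at least 1 group, and FOXP2 and PAX6 in none. In deposited values 21 members were higher and 7 lower (median 0.16), against 20.8% and 4.81% of all genes. After quantile normalization 14 were higher and 19 lower (median -0.07), against 15.1% and 16.3% of all genes. The members' shares of 19.8% and 6.6% in deposited values lay close to those of all genes. The deposited count of higher members was 32 without E array 1, and that of lower members was 3 without DMSO array 2 and 4 without DMSO array 1 or E array 1.

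With all 3 agents (DTE against DMSO), 18 members fell, among them FOXM1, FOXN2, FOXR2, HOXB6, PAX3, HOXC8, TBX18, HOXB5, SOX5 and FOXD3, and HOXB13 and SOX2 rose. FOXP2 also passed as higher but was not well above background in any group. In deposited values 61 members were lower and 3 higher (median -0.46), against 60.8% and 4.26% of all genes. After quantile normalization 18 were lower and 15 higher (median -0.01), against 22.4% and 20.5%. The 3 higher members were reduced to 1 without DMSO array 3. Deposited differences in this comparison include the overall shift of -0.54.

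**Figure D1:**
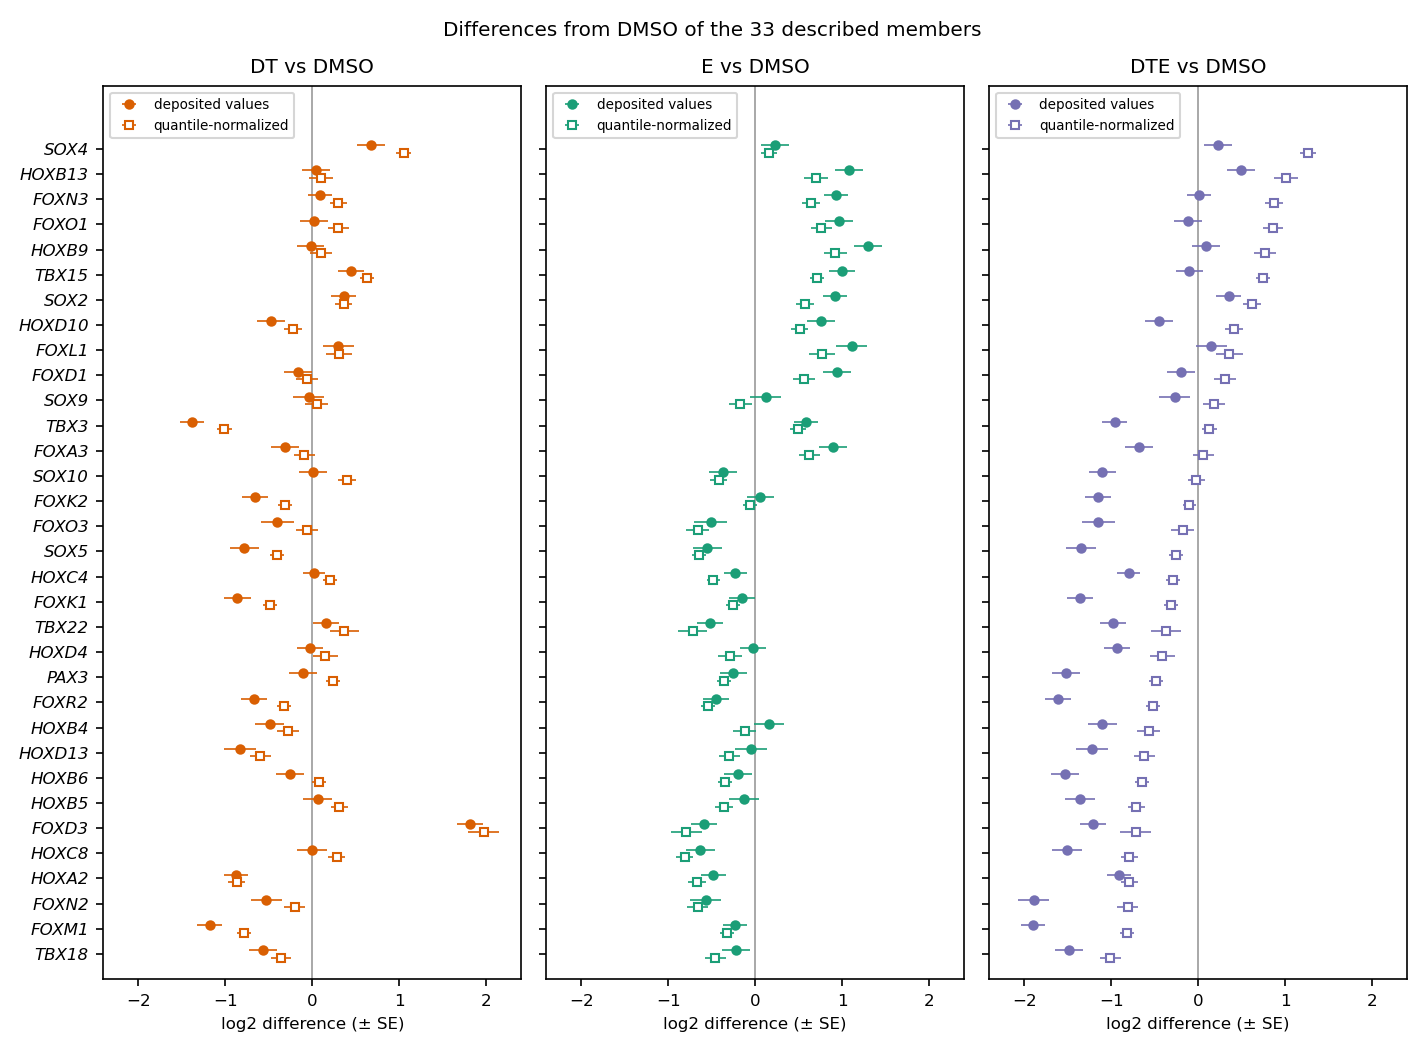
Log2 differences from DMSO (± SE) of the 33 described members, in deposited values (filled circles) and after quantile normalization (open squares), 3 arrays per group. FOXD3 stands far right under DT (1.81 and 1.97) and left of 0 under E and DTE. Most deposited DTE values lie left of their quantile values.

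FOXD3, a forkhead repressor that specifies the neural crest, had the largest rise of any member under DT. Its intensity was 155, 127 and 128 in DT cells, 26.9, 22.5 and 28.1 in E cells and 20.1, 17 and 13.8 in DTE cells, against 35.3, 42.9 and 38.7 in DMSO cells. All DT arrays were above, and all E and DTE arrays below, every DMSO array. The log2 difference from DMSO was 1.81 ± 0.15 for DT (adjusted p = 4.2e-09) and 1.97 ± 0.18 after quantile normalization. It was -0.59 ± 0.15 for E (adjusted p = 0.0052; quantile -0.79) and -1.21 ± 0.15 for DTE (adjusted p = 2.5e-07; quantile -0.72). Between DTE and DT cells it was -3.02 ± 0.15 (8.11-fold lower in DTE, adjusted p = 9.3e-13; quantile -2.69). DTE cells were also below E cells in deposited values (-0.62), but not after quantile normalization (0.07, adjusted p = 0.85).

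**Figure D2:**
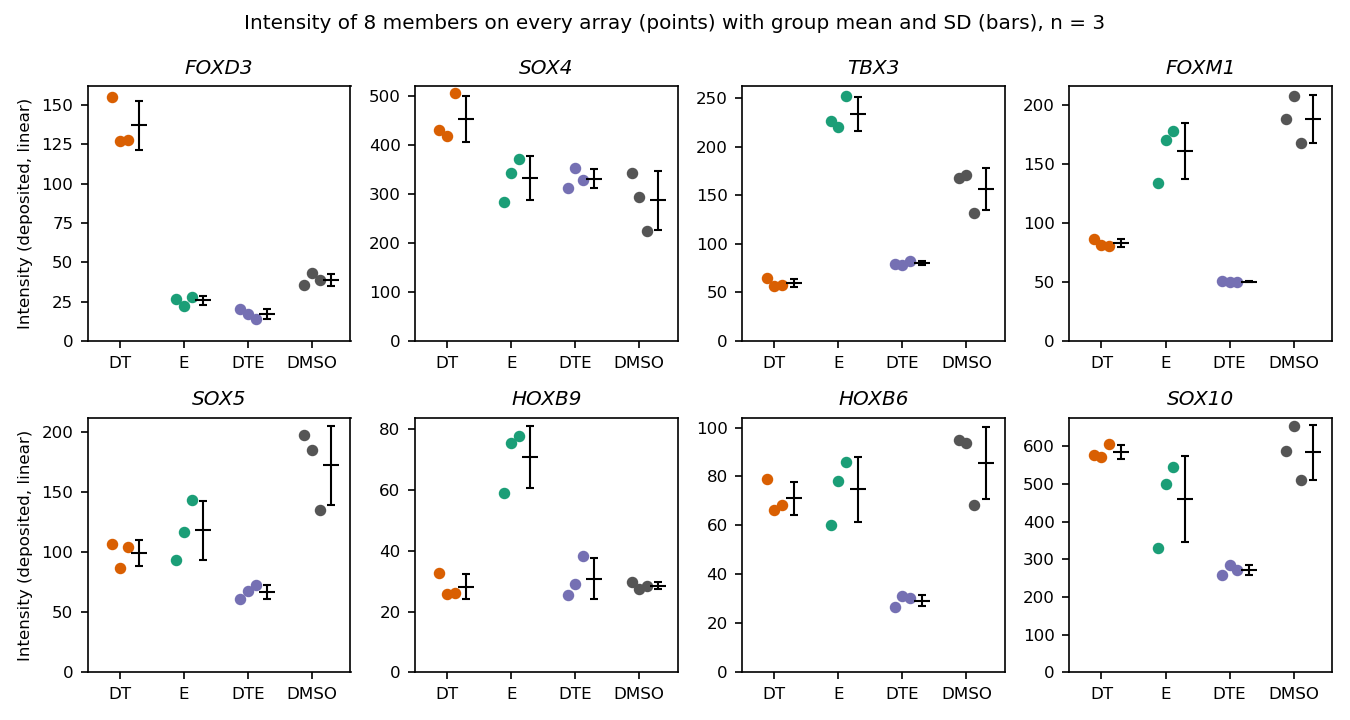
Deposited linear intensity of 8 members on each array (points), by treatment, with the group mean and SD (bars, n = 3). FOXD3 is high in DT cells only (127 to 155, against 13.8 to 42.9 elsewhere), TBX3 is low in DT cells and high in E cells, and HOXB9 is high in E cells.

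SOX10, the SOXE factor that maintains the melanocyte lineage, fell in DTE against DT cells, while its difference from DMSO depended on the scale. Its intensity was 578, 572 and 605 in DT, 331, 501 and 546 in E and 258, 284 and 272 in DTE cells, against 588, 654 and 510 in DMSO cells. Only the DTE arrays were all below the DMSO arrays. The DTE difference of -1.10 ± 0.16 in deposited values (adjusted p = 1.9e-06) was -0.02 ± 0.10 after quantile normalization (adjusted p = 0.89). The E difference was -0.37 (adjusted p = 0.095) and -0.42 on the quantile scale (adjusted p = 0.0065), and without E array 3 it was -0.51 in deposited values (adjusted p = 0.03). In DTE against DT cells the differences were -1.11 ± 0.16 and -0.42 ± 0.10.

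PAX3, which acts with SOX10 upstream of MITF, fell under all 3 agents. It read 130, 114 and 135 in DT, 92.6, 122 and 131 in E and 40.1, 50.3 and 52.9 in DTE cells, against 149, 145 and 116 in DMSO cells. The DTE arrays lay below all others. The DTE difference from DMSO was -1.52 ± 0.16 (adjusted p = 1.3e-08), or 2.87-fold lower, and -0.48 ± 0.08 after quantile normalization (adjusted p = 0.00033). Against DT cells it was -1.41 ± 0.16 (quantile -0.72). DT cells alone differed from DMSO cells by -0.11 ± 0.16 (adjusted p = 0.69), with the opposite sign on the quantile scale (0.24).

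SOX5, a SOXD factor that in mouse melanocytes modulates SOX10, fell under each treatment. Its intensity was 107, 87.1 and 104 in DT, 93.6, 117 and 143 in E and 61.1, 67.5 and 72.5 in DTE cells, against 197, 185 and 135 in DMSO cells. DT and DTE arrays did not overlap with DMSO arrays, and E array 3 lay above DMSO array 3. Differences from DMSO were -0.78 ± 0.17 for DT (adjusted p = 0.0008; quantile -0.41), -0.55 ± 0.17 for E (adjusted p = 0.016; quantile -0.65) and -1.35 ± 0.17 for DTE (adjusted p = 1.7e-07; quantile -0.26). The E call in deposited values was lost without DMSO array 1, DMSO array 2 or E array 1 (-0.39 to -0.49, adjusted p = 0.072 to 0.083). Its SOXD relative SOX6 went the other way under DT, with 107, 82.6 and 123 in DT cells against 76.6, 65.6 and 62.3 in DMSO cells. That rise was 0.60 ± 0.17 (adjusted p = 0.0096; quantile 0.87).

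SOX4, a SOXC factor of progenitor cells, was higher under DT. It read 431, 419 and 506 in DT, 284, 343 and 372 in E and 313, 352 and 328 in DTE cells, against 343, 294 and 224 in DMSO cells. The DT arrays stood above all others. The DT rise was 0.67 ± 0.16 (adjusted p = 0.0019), and 1.05 ± 0.09 on the quantile scale. For DTE the deposited difference of 0.23 ± 0.16 (adjusted p = 0.21) became 1.26 ± 0.09 after quantile normalization (adjusted p = 2.3e-07), so that call rests on the normalization. SOX9, which can replace SOX10 in less differentiated melanoma cells, read 25.5, 21.3 and 21.8 in DT, 16.9, 29.9 and 32.9 in E and 18.9, 18.9 and 20.5 in DTE cells, against 26.8, 21 and 22.8 in DMSO cells. It passed the test in no comparison on either scale when all arrays were used. Without E array 1 its E difference was 0.42 (adjusted p = 0.033).

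SOX2, a factor of stem cells, was dim and rose under E. Its intensity was 14.5, 15.4 and 14.9 in DT, 19.6, 23.5 and 22.9 in E and 13.5, 14.5 and 16.9 in DTE cells, against 10.8, 13 and 11.2 in DMSO cells, which were not well above background. The fold is therefore a lower bound. In deposited values SOX2 was at least 1.69-fold higher in E than in DMSO cells (adjusted p = 1.7e-05) and at least 1.15-fold higher in DTE cells (adjusted p = 0.026). On the quantile scale the highest log2 difference of any SOX gene under E was 0.57. The bound under E therefore holds for deposited values only. The DTE call was lost without DMSO array 1, DMSO array 3 or DTE array 3 (adjusted p = 0.059 to 0.14). For DT, the adjusted p of 0.053 passed without DMSO array 2, E array 1 or E array 3 (0.035 to 0.048). The DT difference also passed after quantile normalization (0.36, adjusted p = 0.013).

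FOXM1, the forkhead activator of mitotic genes, fell under DT and under all 3 agents. It read 86.6, 81.6 and 80.3 in DT, 134, 170 and 178 in E and 50.6, 50.3 and 50 in DTE cells, against 188, 208 and 168 in DMSO cells. DT and DTE arrays lay below all DMSO arrays, while E arrays overlapped them. The E difference passed on the quantile scale (-0.32, adjusted p = 0.011) but not in deposited values. The difference from DMSO was -1.18 ± 0.14 for DT (adjusted p = 6e-07; quantile -0.79) and -1.90 ± 0.14 for DTE (adjusted p = 8.5e-11; quantile -0.82). DTE against DT was -0.72 in deposited values and -0.03 on the quantile scale (adjusted p = 0.83).

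Known FOXM1 targets were counted beside it. All 20 measured genes of a list of 24 were lower in DT cells on both scales, with a median of -1.29 (quantile -0.93), against -0.12 (quantile 0.00) over all genes, of which 23.1% were lower (quantile 14.6%). CDK1, the kinase of mitotic entry, was 28.1, 22.3 and 29.4 in DT against 114, 109 and 86.6 in DMSO cells, a difference of -1.95 ± 0.15. Under E, 6 of the 20 targets (30%) were higher and 0 lower on either scale, against 20.8% of all genes higher (quantile 15.1%), with CDK1 at 149, 154 and 170 (0.62 ± 0.15, adjusted p = 0.0029). In DTE cells all 20 were lower than in DMSO cells in deposited values, and 16 were lower and 1 higher after quantile normalization, against 60.8% (quantile 22.4%) of all genes lower. In DTE against DT cells the direction depended on the scale. There 9 were lower and 1 higher in deposited values, and 13 were higher and 0 lower after quantile normalization. The deposited shares of 45% lower and 5% higher compare with 54% and 4.09% of all genes. On the quantile scale 65% were higher and 0% lower, against 16.4% and 17.9% of all genes.

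The FOXO factors, which counter growth signals, differed among themselves. FOXO1 was 107, 139 and 144 in E cells, against 63, 81.9 and 56.9 in DMSO cells, with no overlap. Its rise under E was 0.96 ± 0.16 (adjusted p = 5.4e-05; quantile 0.76). In DT cells it was 60.3, 66.4 and 76.1 and in DTE cells 56.6, 65.5 and 62.1, within the range of DMSO cells or just below it. The DTE difference of -0.12 ± 0.16 (adjusted p = 0.53) was 0.86 ± 0.12 on the quantile scale (adjusted p = 4.3e-05). FOXO4 rose under DT instead, with 150, 125 and 141 in DT against 95.4, 109 and 97.2 in DMSO cells (0.46 ± 0.14, adjusted p = 0.016; quantile 0.79). FOXO3 was 74, 55.4 and 64.6 in DT, 48.1, 54.8 and 79.7 in E and 36.4, 41.4 and 37 in DTE cells, against 85.9, 112 and 62.7 in DMSO cells. FOXO3 was lower in DTE cells by -1.15 ± 0.19 in deposited values only (quantile -0.18, adjusted p = 0.31). Its E difference of -0.51 (adjusted p = 0.052) passed after quantile normalization (-0.66, adjusted p = 0.0019) and with median centring (-0.79, adjusted p = 0.00097). The E difference also passed with a variance trend (adjusted p = 0.047) and with dim genes left out (adjusted p = 0.031). So it did without DMSO array 3 (-0.72, adjusted p = 0.0077) or E array 3 (-0.72, adjusted p = 0.008). The DT difference of FOXO3, -0.40 (adjusted p = 0.13), passed without DMSO array 3 (-0.61, adjusted p = 0.016).

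Of 21 measured FOXO targets, 6 were higher and 2 lower in DT, 12 higher and 3 lower in E, and 6 higher and 10 lower in DTE cells than in DMSO cells. On the quantile scale the counts were 12 and 2, 10 and 4, and 13 and 4. The shares higher were 28.6% in DT, 57.1% in E and 28.6% in DTE cells, against 4.72%, 20.8% and 4.26% of all genes, and on the quantile scale 57.1%, 47.6% and 61.9%, against 15.1%, 15.1% and 20.5%. The shares lower were 9.52%, 14.3% and 47.6%, against 23.1%, 4.81% and 60.8% of all genes. On the quantile scale the shares lower were 9.52%, 19% and 19%, against 14.6%, 16.3% and 22.4%. TXNIP, which restrains glucose uptake, rose 4.16-fold under DT (2.06 ± 0.18, quantile 2.33). BCL6, a transcriptional repressor, rose under DT (1.05 ± 0.16) and E (1.80 ± 0.16). CCND1, a cyclin of cell cycle entry that FOXO factors repress, fell by 1.37 ± 0.14 under DT and by 1.94 ± 0.14 under DTE. CCND2, another D-type cyclin of the list, rose under E (1.76 ± 0.18, quantile 1.32). The counts do not separate targets that FOXO factors activate from those they repress. TRIB1, a pseudokinase, fell by 1.87 ± 0.16 under DT and by 2.67 ± 0.16 under DTE.

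FOXK1, FOXK2 and FOXR2 fell under DT. FOXK1, a repressor of starvation genes, was 76.6, 66.9 and 67.4 in DT, 93.1, 126 and 128 in E and 47.3, 51.5 and 50.2 in DTE cells, against 127, 144 and 112 in DMSO cells. It fell under DT (-0.86 ± 0.15, adjusted p = 8.5e-05; quantile -0.49) and DTE (-1.36 ± 0.15; quantile -0.31). Its paralog FOXK2 was 80.7, 67 and 87.9 in DT, 106, 130 and 155 in E and 49.7, 58.7 and 58.8 in DTE cells, against 125, 132 and 113 in DMSO cells. FOXK2 fell under DT (-0.66 ± 0.15; quantile -0.31), but the DTE difference of -1.15 was -0.10 after quantile normalization (adjusted p = 0.37). FOXR2, an X-linked forkhead gene that is active in some embryonal brain tumours, was 165, 135 and 175 in DT, 163, 180 and 208 in E and 79.2, 80.3 and 85.2 in DTE cells, against 278, 282 and 198 in DMSO cells. It fell under DT (-0.67 ± 0.15), E (-0.45 ± 0.15, adjusted p = 0.035) and DTE (-1.61 ± 0.15), with quantile values of -0.32, -0.54 and -0.52. The E call was lost without DMSO array 1, DMSO array 2, E array 1 or E array 2 (-0.36 to -0.44, adjusted p = 0.091 to 0.16), with a replicate block (adjusted p = 0.053) and when E and DMSO arrays alone were fitted (adjusted p = 0.062).

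The FOXN paralogs diverged under E. FOXN3, a repressor linked to cell cycle checkpoints, was 69.7, 90.4 and 85.1 in E, 50.3, 41.6 and 45.5 in DT and 42.8, 48.3 and 38.8 in DTE cells, against 47.4, 43.2 and 38.2 in DMSO cells. Its E arrays stood above all others, and the rise was 0.93 ± 0.14 (adjusted p = 3.1e-05; quantile 0.64). FOXN2 was 186, 257 and 302 in E, 282, 202 and 277 in DT and 87.2, 88.8 and 120 in DTE cells, against 401, 367 and 323 in DMSO cells. FOXN2 fell under E (-0.57 ± 0.18, adjusted p = 0.019; quantile -0.66) and DTE (-1.89 ± 0.18, adjusted p = 3.1e-09; quantile -0.81). The DT difference of -0.53 (adjusted p = 0.027) was -0.20 on the quantile scale (adjusted p = 0.26). The E call was lost without DMSO array 1, DMSO array 2 or E array 1 (-0.38 to -0.56, adjusted p = 0.055 to 0.11) and with a pseudocount of 16 (-0.54, adjusted p = 0.05, unrounded above the threshold), and the DT call without DMSO array 1, DMSO array 2 or DT array 2 (-0.38 to -0.52, adjusted p = 0.076 to 0.18) and with that pseudocount (adjusted p = 0.062).

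FOXA3, FOXD1 and FOXL1, forkhead genes of other lineages, were higher under E. Of the 40 FOX genes, 8 were higher and 3 lower under E (7 and 6 on the quantile scale), and the 20% higher compares with 20.8% of all genes. FOXA3, a factor of liver and gut, was 81, 86.9 and 81.9 in E, 36.5, 31 and 41.8 in DT and 28.2, 27 and 28.4 in DTE cells, against 49.7, 52.6 and 34.3 in DMSO cells. It rose by 0.89 ± 0.16 under E (adjusted p = 0.00011; quantile 0.62) and fell in DTE against E cells by 1.58 ± 0.16 (adjusted p = 8.7e-09; quantile -0.56). Without DMSO array 3 its DT difference of -0.31 was -0.50 (adjusted p = 0.011). FOXD1, a factor of kidney stroma, was 36.3, 62.5 and 47.9 in E, 20.7, 21.7 and 25 in DT and 19.1, 22.3 and 23.9 in DTE cells, against 25.4, 25 and 24.5 in DMSO cells. Its rise was 0.94 ± 0.16 (adjusted p = 0.00011; quantile 0.56). FOXL1, a factor of gut mesenchyme, was 18.2, 23.6 and 31.6 in E against 14.6, 9.59 and 9.71 in DMSO cells, where it was not well above background. In deposited values FOXL1 was at least 1.8-fold higher in E cells (adjusted p = 5.8e-05). On the quantile scale the highest log2 difference of any FOX gene under E was 0.77, so this bound holds for deposited values only. FOXF2, also of gut mesenchyme, was at least 1.31-fold higher in DT (18.7, 15.4 and 20) than in DMSO cells (13, 9.45 and 14.9; adjusted p = 0.017). FOXP2 and PAX6 passed the test under E on both scales, and FOXP2 also under DTE, but neither was well above background in any group, so no fold is given.

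TBX3, a T-box repressor of cell cycle inhibitors and of E-cadherin, fell under DT and rose under E. It was 65, 57 and 57.6 in DT, 227, 221 and 253 in E and 78.9, 78.7 and 82.3 in DTE cells, against 168, 171 and 132 in DMSO cells. The 4 groups did not overlap. TBX3 fell by 1.38 ± 0.14 under DT (2.61-fold, adjusted p = 4.5e-08; quantile -1.01) and rose by 0.58 ± 0.14 under E (1.5-fold, adjusted p = 0.0024; quantile 0.49). Against DMSO, the DTE difference was -0.96 ± 0.14 in deposited values and 0.13 ± 0.09 on the quantile scale (adjusted p = 0.26). DTE cells were above DT cells (0.42 ± 0.14, adjusted p = 0.011; quantile 1.13) and below E cells (-1.55 ± 0.14; quantile -0.36).

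Of the other T-box genes, TBX15 rose under E and TBX18 fell under DTE. TBX15, a factor of limb skeleton and fat, was 61, 53.3 and 59.2 in DT, 68.8, 94.4 and 95.3 in E and 38.4, 40.9 and 40.1 in DTE cells, against 48.6, 42.9 and 37.3 in DMSO cells. It rose under E by 1.00 ± 0.15 (adjusted p = 1.5e-05; quantile 0.71) and under DT by 0.44 ± 0.15 (adjusted p = 0.029; quantile 0.63). The DT call was lost without DMSO array 2, DMSO array 3, DT array 1 or DT array 3 (0.34 to 0.44, adjusted p = 0.073 to 0.11). TBX18, a factor of the epicardium and sinus node, was 30.8, 26.9 and 30 in DT, 31.4, 39.6 and 42.1 in E and 12.7, 16.1 and 18.5 in DTE cells, against 51.8, 38.8 and 40.8 in DMSO cells. It fell under DTE by 1.48 ± 0.16 (adjusted p = 2.5e-08; quantile -1.01) and under DT by 0.57 ± 0.16 (adjusted p = 0.0085; quantile -0.36). The DT value was -0.45 (adjusted p = 0.069) without DMSO array 1. TBX22, a factor of palate formation, was 27.1, 35.9 and 27.4 in E, 46.1, 49.4 and 47.3 in DT and 20.3, 26.7 and 18.8 in DTE cells, against 40.6, 47.9 and 40.1 in DMSO cells. It fell under E (-0.52 ± 0.15, adjusted p = 0.014; quantile -0.72), a call lost without DMSO array 2 (-0.44, adjusted p = 0.079) or E array 3 (-0.45, adjusted p = 0.057).

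Among the 27 HOX genes, HOXB9, HOXB13 and HOXD10 rose under E, and HOXC8 and HOXA2 (not well above background under E) were lower. In deposited values 5 were higher and 2 lower (18.5% and 7.41%), against 20.8% and 4.81% of all genes, and on the quantile scale 3 and 5. No other gene of the HOXB cluster, and no HOXC gene, was higher on both scales, and the posterior genes HOXD11 (0.32, adjusted p = 0.19), HOXD12 (0.06, adjusted p = 0.85) and HOXD13 (-0.05, adjusted p = 0.87) did not pass. HOXB9 was 59.1, 75.5 and 77.6 in E, 32.8, 25.7 and 26 in DT and 25.3, 28.9 and 38.2 in DTE cells, against 29.8, 27.4 and 28.3 in DMSO cells. Its E arrays stood apart from all others, with a rise of 1.30 ± 0.16 (2.47-fold, adjusted p = 1e-06; quantile 0.92). HOXB13, known from prostate, was 33.6, 31.3 and 45.9 in E, 17.7, 18.1 and 17.3 in DT and 19.7, 28 and 25.8 in DTE cells, against 19.1, 18.6 and 14.3 in DMSO cells. It rose by 1.08 ± 0.16 under E (adjusted p = 2.1e-05; quantile 0.70) and by 0.49 ± 0.16 under DTE (adjusted p = 0.011; quantile 1.01). The DTE call was lost without DMSO array 3 (0.36, adjusted p = 0.071) or DTE array 2 (0.39, adjusted p = 0.073).

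HOXB4, HOXB5 and HOXB6 fell in DTE cells. Their neighbours HOXB3 (-0.59, quantile 0.03) and HOXB7 (-0.71, quantile 0.18) were lower in deposited values only, and HOXB8 was not well above background. HOXB4 was 18.3, 20.8 and 18.1 in DTE, 33.4, 29.8 and 24.9 in DT and 34.5, 54.8 and 50.7 in E cells, against 52.1, 36.2 and 36.3 in DMSO cells. HOXB5 was 20.7, 22.2 and 21.7 in DTE, 62.6, 52.6 and 58.8 in DT and 38.2, 50.3 and 67.9 in E cells, against 62.9, 60 and 44.9 in DMSO cells. HOXB6 was 26.7, 31 and 30.2 in DTE, 78.9, 66.3 and 68.2 in DT and 60.2, 78.2 and 86 in E cells, against 94.8, 93.5 and 68.5 in DMSO cells. For each of these 3 genes the DTE arrays lay below all arrays of the other groups. The DTE difference from DMSO was -1.10 ± 0.17 for HOXB4, -1.36 ± 0.17 for HOXB5 and -1.53 ± 0.16 for HOXB6, with quantile values of -0.57, -0.71 and -0.65. HOXB4 was also lower under DT in deposited values (-0.49, adjusted p = 0.039; quantile -0.28, adjusted p = 0.14), a call lost without DMSO array 1, DT array 2 or DT array 3 (-0.31 to -0.50, adjusted p = 0.078 to 0.26), with a replicate block (adjusted p = 0.05, unrounded above the threshold) and with a pseudocount of 16 (-0.34, adjusted p = 0.099).

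In the HOXC and HOXD clusters single genes stood out. HOXC8, a gene of the trunk, was 33.9, 40.8 and 54.9 in E, 65.8, 61.5 and 70.4 in DT and 20.4, 24.2 and 25 in DTE cells, against 71.1, 75.3 and 52.9 in DMSO cells. It fell under E (-0.63 ± 0.17, adjusted p = 0.0065; quantile -0.81) and DTE (-1.51 ± 0.17, adjusted p = 3.9e-08; quantile -0.79). HOXC4 fell under DTE (-0.80 ± 0.13; quantile -0.29), with 18.6, 20.3 and 18.9 in DTE against 36.9, 33.3 and 30.4 in DMSO cells. HOXD4 did so too (-0.93 ± 0.15; quantile -0.41), with 14.9, 22.9 and 20.5 in DTE against 38.6, 35.9 and 34.5 in DMSO cells. With each array centred on its median neither DTE call held (HOXC4 -0.15, adjusted p = 0.15, and HOXD4 -0.28, adjusted p = 0.055).

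HOXD10 and HOXD13 are posterior genes of the limb. HOXD10 rose under E, with 78.7, 84 and 101 in E against 53.7, 62.7 and 40.6 in DMSO cells (0.76 ± 0.16, adjusted p = 0.00099; quantile 0.51). In DTE cells (33.3, 40.1 and 39.9) its sign depended on the scale, with -0.45 ± 0.16 in deposited values (adjusted p = 0.017) and 0.41 ± 0.10 after quantile normalization. The deposited call was lost without DMSO array 1, DMSO array 2 or DTE array 1 (-0.31 to -0.42, adjusted p = 0.052 to 0.13). HOXD10 in DT cells (43.7, 34 and 34.8) differed from DMSO by -0.47 (adjusted p = 0.033; quantile -0.22), lost without DMSO array 1, DMSO array 2, DT array 2 or DT array 3 (-0.33 to -0.44, adjusted p = 0.098 to 0.22) and with a pseudocount of 16 (-0.34, adjusted p = 0.066). HOXD13 fell under DT, with 27.2, 26.6 and 26.9 in DT against 54.4, 51.9 and 38.7 in DMSO cells (-0.83 ± 0.18, adjusted p = 0.00085; quantile -0.60). It also fell under DTE (21.3, 21.2 and 19; -1.22 ± 0.18; quantile -0.62). HOXD3 rose under DT, with 24.4, 24.3 and 20.6 in DT against 13.2, 15.4 and 14.8 in DMSO cells (0.67 ± 0.15, adjusted p = 0.0016; quantile 0.72).

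**Figure D3:**
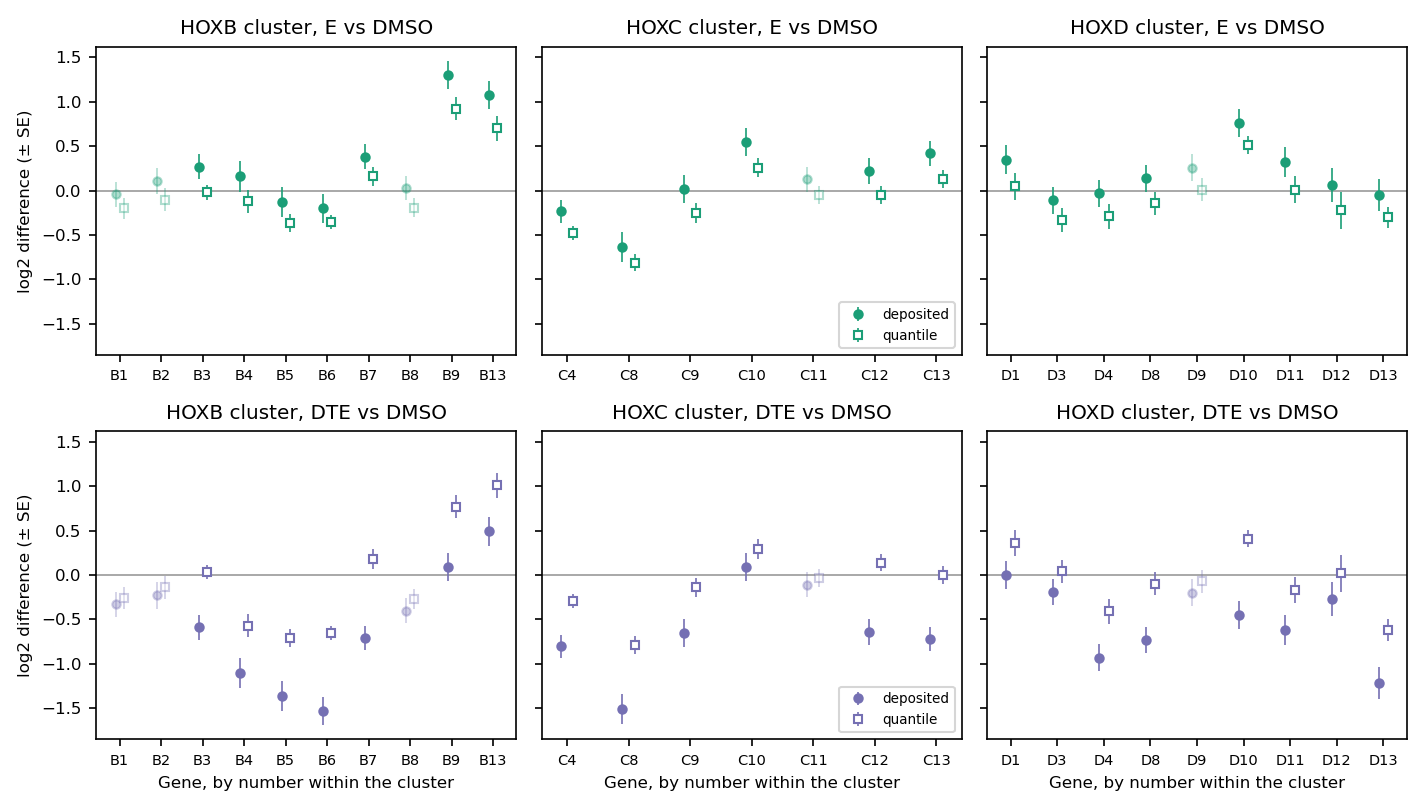
Log2 differences from DMSO (± SE, 3 arrays per group) for the genes of the HOXB, HOXC and HOXD clusters, ordered by gene number, for E (top) and DTE (bottom). Filled circles are deposited values, open squares quantile-normalized values, and faint symbols are genes not well above background in any group. HOXB9 (1.30) and HOXB13 (1.08) are the highest points under E, and HOXB6 (-1.53) and HOXC8 (-1.51) the lowest under DTE.

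Genes that act with or on HOX genes were counted beside them. Of the 6 TALE cofactors measured, which bind DNA together with HOX proteins, 1 was higher and 2 lower in DT, 3 higher and 0 lower in E, and 0 higher and 3 lower in DTE than in DMSO cells (1 and 1, 2 and 1, and 2 and 2 on the quantile scale). The 50% higher in E cells compares with 20.8% of all genes, and the 50% lower in DTE cells with 60.8%. MEIS3 rose under DT (0.68 ± 0.20, quantile 0.84) and E (0.92 ± 0.20, quantile 0.58), and PBX3 fell under DT (-0.60 ± 0.15, quantile -0.40). Of 23 Polycomb and trithorax genes, 13 were lower and 1 higher in DT, 3 lower and 4 higher in E, and 23 lower and 0 higher in DTE cells. On the quantile scale the counts were 10 and 4, 9 and 4, and 9 and 4. The shares lower were 56.5% in DT, 13% in E and 100% in DTE cells, against 23.1%, 4.81% and 60.8% of all genes, and on the quantile scale 43.5%, 39.1% and 39.1%, against 14.6%, 16.3% and 22.4%. The 17.4% higher in E cells compares with 20.8% of all genes. PHF19, an accessory subunit of the Polycomb complex PRC2, was 94.4, 86.1 and 108 in DT, 93.2, 113 and 128 in E and 37.7, 35.1 and 37.5 in DTE cells, against 298, 329 and 272 in DMSO cells. Its DTE difference was -3.02 ± 0.14, or 8.13-fold lower (quantile -2.02). EZH2, the methyltransferase of PRC2, fell under DT (222, 175 and 204, against 447, 423 and 373 in DMSO cells; -1.05 ± 0.13) and rose under E (588, 552 and 601; 0.49 ± 0.13).

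SOX10 targets were counted in the same way. Of 14 measured, 1 of which (SOX5) is itself among the 106 members, 8 were lower and 1 higher in DT, 4 lower and 3 higher in E, and 12 lower and 0 higher in DTE cells than in DMSO cells, and on the quantile scale 6 and 3, 8 and 3, and 9 and 3. The shares lower were 57.1%, 28.6% and 85.7%, against 23.1%, 4.81% and 60.8% of all genes, and on the quantile scale 42.9%, 57.1% and 64.3%, against 14.6%, 16.3% and 22.4%. The 21.4% higher in E cells compares with 20.8% of all genes. MITF was 126, 116 and 124 in DT, 320, 403 and 488 in E and 104, 114 and 124 in DTE cells, against 574, 537 and 454 in DMSO cells. It fell by 2.09 ± 0.15 under DT (4.27-fold; quantile -1.73) and by 2.19 ± 0.15 under DTE (quantile -1.10). ERBB3, a receptor known as a target of SOX10 and of FOXD3, was 1136, 994 and 1195 in DT, 371, 423 and 474 in E and 247, 273 and 298 in DTE cells, against 1011, 1056 and 823 in DMSO cells. It fell under E (-1.19 ± 0.14; quantile -1.29), and in DTE against DT cells by 2.02 ± 0.14 (adjusted p = 3.6e-10; quantile -1.28). Other targets rose on both scales. Under E these were NES (1.35 ± 0.15, quantile 1.18), NGFR (0.70 ± 0.14, quantile 0.64) and PMEL (0.67 ± 0.15, quantile 0.65). Under DT it was TYRP1 (0.81 ± 0.14, quantile 0.89).

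Adding E to DT (DTE against DT) lowered FOXD3, HOXC8, HOXB5, PAX3, FOXN2 and 12 other members on both scales and raised HOXB13 and TBX3. Of the 17 lower, 16 were above background in at least 1 group. FOXR1, the other one, and FOXP2, which also passed as higher, were not. In deposited values 48 members were lower and 3 higher (median -0.35), against 54% and 4.09% of all genes. After quantile normalization 17 were lower and 11 higher (median -0.02), against 17.9% and 16.4%. The higher count was 1 without DTE array 3. SOX6 and SOX12 were among the 17. SOX6 was 40.6, 43.3 and 42.8 in DTE cells against 107, 82.6 and 123 in DT cells (-1.28 ± 0.17; quantile -0.62). SOX12, a SOXC factor, was 59.6, 73.2 and 66.5 in DTE cells against 135, 137 and 142 in DT cells (-1.06 ± 0.17; quantile -0.33).

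Adding DT to E (DTE against E) lowered FOXM1, FOXA3, TBX3, HOXB4, HOXB5, HOXB6 and TBX18 on both scales and raised no member on both. In deposited values 86 members were lower and 0 higher (limma, median -0.68), and at an unadjusted p under 0.05 the counts were 88 and 0. Of all genes 78.5% were lower and 0.247% higher. After quantile normalization 7 members were lower and 7 higher (median 0.03), against 9.99% and 10.1% of all genes. The quantile call of SOX4 was the largest of the 7 higher ones (1.10 ± 0.09), while its deposited difference was 0.00 ± 0.16.

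The interaction asks whether E changed a gene by the same amount in the presence of DT as without it, as the difference between DTE and DT minus that between E and DMSO. It passed the test as negative for FOXD3, TBX15 and HOXB5 on both scales. In deposited values it passed as negative for 62 members and as positive for 1 (58.5% and 0.943%, median -0.62), against 62.5% and 0.206% of all genes. After quantile normalization it passed as negative for 3 and as positive for 3 (2.83% each, median 0.0), against 2.12% and 2.08% of all genes. For FOXD3 it was -2.43 ± 0.22 (adjusted p = 1.4e-07; quantile -1.90 ± 0.26, adjusted p = 0.0015). FOXD3 was lower by 3.02 in DTE than in DT cells, and lower by 0.59 in E than in DMSO cells. For TBX15 it was -1.54 ± 0.21 (adjusted p = 1.9e-05; quantile -0.60), and for HOXB5 -1.30 ± 0.24 (adjusted p = 0.00028; quantile -0.66).

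HOXA2 was near background throughout. It was 7.96, 8.31 and 9.92 in DT, 11.1, 10.5 and 13.2 in E and 7.86, 8.99 and 8.71 in DTE cells, all groups not well above background, against 15.9, 16.1 and 16.2 in DMSO cells. It was at least 1.23-fold lower in DT, at least 1.06-fold lower in E and at least 1.39-fold lower in DTE than in DMSO cells. The E call was lost without E array 2 (-0.41, adjusted p = 0.071). The DTE call was lost with median centring (-0.27, adjusted p = 0.064). The interaction of 0.45 ± 0.19 had an adjusted p of 0.049, but with DT, E and DTE cells all at background it does not show that the effect of E differed. That call was lost when any array other than DT array 3, E array 3 or DTE array 1 was left out (0.38 to 0.45, adjusted p = 0.064 to 0.13). SOX5 and TBX3 passed the interaction test on the quantile scale alone (0.80 and 0.64, against -0.01 and -0.16 in deposited values).

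**Figure D4:**
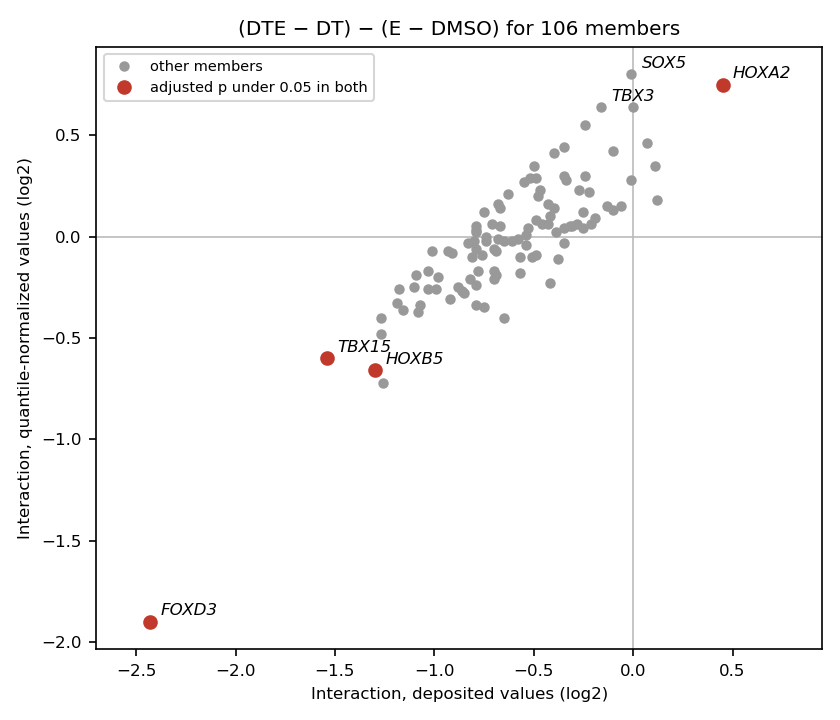
The interaction of each of the 106 members in deposited values (horizontal, log2) and after quantile normalization (vertical, log2). The points lie along a band displaced to the left of 0 by the overall shift, and FOXD3 (-2.43 and -1.90) stands apart at the lower left.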

How the data were processed

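The authors deposited 1 linear intensity per probe set and array. The submitters' processing notes name RMA and Transcriptome Analysis Console without versions, and per the labels ERCC control RNA was put into the lysate. How the arrays' relative levels were set is not given there. The planned analysis assumed log2 values, so log2 of the deposited intensity was taken, with no pseudocount (0) and no filter. GEO's platform annotation tied 14750 of 29398 probe sets (50.2%) to 1 gene, and 14648 stayed unnamed here. The probe set with the highest mean over 12 arrays stood for a gene, which left 14582 genes.

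All arrays were fitted with 4 group means in limma 3.58.1 (R 4.3.3; lmFit, eBayes), with Benjamini-Hochberg adjustment over all genes within each of 6 comparisons and a threshold of 0.05. Fits were tested on simulated data. On each array, the background level was set at the 95th percentile among the dimmest 25% of genes. Where 1 group was at or under it, folds are lower bounds in deposited values, against that level or the gene's own signal, whichever was higher. These bounds include any difference in the level of the arrays between groups.

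The members described with array values are up to 30 above background and called in the same direction in deposited and quantile values, by largest difference from DMSO (39 met this), plus 10 melanoma and cell cycle factors. This made 33. List genes named were taken from the 4 with the smallest adjusted p in a list and comparison, and not all 4 were named. TYRP1 was not among these for the SOX10 targets under DT, and was added as the 1 target that rose there. SOX6, SOX12, FOXO4, FOXF2 and HOXD3, also among the 39, were added after their values were seen. Members and lists were chosen with earlier results of these data known. The number of arrays limits the precision, and binding of probes to close paralogs was not tested. Alternatives were quantile normalization, median centring, a replicate block, a variance trend, dim genes left out, a pseudocount of 16, the mean over probe sets, the compared groups alone and each array left out.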

Additional observations from a re-analysis of the deposited data

Results flagged for a closer look

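The effect of entinostat differed between cells with and without dabrafenib and trametinib for FOXD3, TBX15 and HOXB5, by a test of that difference (limma interaction, adjusted p under 0.05) on both scales. For FOXD3 it was -2.43 in deposited values and -1.90 after quantile normalization. The FOXD3 level averaged 137 ± 15.8 in DT and 17 ± 3.14 in DTE cells, and 25.8 ± 2.91 in E and 39 ± 3.81 in DMSO cells (SD, n = 3 each). For TBX15 it was -1.54 (quantile -0.60), and for HOXB5 it was -1.30 (quantile -0.66). HOXA2 also passed (0.45, adjusted p = 0.049; quantile 0.75), but it was above background in DMSO cells alone, so its value does not show that the effect of entinostat differed. The overall interaction over all genes had a median of -0.63 in deposited values and 0.00 after quantile normalization.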

How the results depend on the processing

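The scale set most counts. For DT against DMSO, quantile normalization and median centring gave 16 and 17 members higher, and median centring 9 lower. For E they gave 19 and 25 lower, and median centring 12 higher. For DTE against DMSO they gave 15 and 46 higher and 18 and 21 lower. For DTE against DT they gave 11 and 24 higher and 17 and 22 lower, and against E 7 and 44 higher and 7 and 13 lower. The interaction passed as positive for 3 and 10 members and as negative for 3 and 5. A pseudocount of 16 gave 1 member higher in DTE than in DT, and ended the calls of FOXN2 under E and of FOXN2, HOXB4 and HOXD10 under DT. Fitting the compared groups alone ended that of FOXR2 under E. Over all genes the median difference for DTE against DMSO was -0.54 in deposited and -0.03 in quantile values, and changes of sign were not counted there. The sign for DTE against DMSO differed between deposited and quantile values in 41 members, of which 21 passed on at least 1 of these scales. Among the 33 described members, those that passed were FOXA3 (0.06), FOXO1 (0.86), HOXD10 (0.41), TBX15 (0.74) and TBX3 (0.13), and for DT PAX3 (0.24) was the only one of them. It turned with median centring for DTE in FOXD1 (0.44), FOXO1 (0.53), HOXD10 (0.19), SOX9 (0.37) and TBX15 (0.54). Median centring also ended the DTE calls of HOXC4, HOXD4 and HOXA2. Some described members passed against DMSO after quantile normalization but not in deposited values. Under DT these included FOXN3 (0.30), HOXB5 (0.31), SOX2 (0.36) and SOX10 (0.40). Under E they included FOXK1 (-0.26), FOXM1 (-0.32), HOXB6 (-0.35), HOXB5 (-0.36), PAX3 (-0.36), TBX18 (-0.46), HOXC4 (-0.48) and FOXO3 (-0.66). Under DTE they included HOXB9 (0.77) and FOXN3 (0.87). The cause was not tested.

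Leaving out 1 array gave 4 to 8 higher and 8 to 20 lower members for DT and 15 to 32 and 3 to 8 for E. For DTE it gave 1 to 3 and 53 to 62 against DMSO, 1 to 3 and 40 to 54 against DT, and 0 and 79 to 92 against E. The interaction passed as positive for 0 to 1 members and as negative for 53 to 77. The positive interaction (HOXA2) was also lost, giving 0, with a variance trend and with dim genes left out. The replicate numbers did not pair the arrays: same-numbered arrays deviated with correlations of -0.22 to 0.13 over 18 pairs, and 3 of 12 arrays correlated best with their own number. With the number as a replicate block the positive interaction count was 0 (HOXA2 0.45, adjusted p = 0.062), and the calls of FOXR2 under E (adjusted p = 0.053) and HOXB4 under DT were lost. Deposited levels near background, as for HOXA2, FOXL1 and SOX2, give lower bounds only.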

Other observations

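Among 72 measured genes of other homeobox and developmental families, 18 were higher and 1 lower in E than in DMSO cells (8 and 6 on the quantile scale). That was 25% higher, against 20.8% of all genes, and 11.1% on the quantile scale, against 15.1%. POU4F1, a neuronal POU factor, rose by 1.59 ± 0.19 (quantile 1.18), DLX6 by 0.98 ± 0.14 (quantile 0.63), HAND1 by 0.92 ± 0.13 (quantile 0.54) and LHX2 by 0.98 ± 0.15 (quantile 0.70). Under DT 2 were higher and 9 lower (2 and 5), with DLX5 higher by 1.07 ± 0.14 (quantile 1.30) and LHX2 lower at -0.76 ± 0.15 (quantile -0.55). These DT shares of 2.78% higher and 12.5% lower compare with 4.72% and 23.1% of all genes. On the quantile scale they were 2.78% and 6.94%, against 15.1% and 14.6%. Under DTE 2 were higher and 38 lower (8 and 14), and 52.8% lower compares with 60.8% of all genes (quantile 19.4% and 22.4%), with IRX6 at -1.32 ± 0.17 (quantile -0.69). Of 21 other neural crest and melanoma factors, 4 were higher and 7 lower under DT, and 5 and 2 under E. Under DTE 1 was higher and 12 lower. Quantile counts were 5 and 7, 5 and 6, and 5 and 5. The shares higher were 19%, 23.8% and 4.76%, against 4.72%, 20.8% and 4.26% of all genes. The shares lower were 33.3%, 9.52% and 57.1%, against 23.1%, 4.81% and 60.8%. On the quantile scale 23.8% were higher under each, against 15.1%, 15.1% and 20.5%. There 33.3%, 28.6% and 23.8% were lower, against 14.6%, 16.3% and 22.4%. JUN rose under DT (2.19 ± 0.14, quantile 2.55) and E (0.96 ± 0.14, quantile 0.85). MYC fell under DT (-2.57 ± 0.17, quantile -2.18), E (-1.35 ± 0.17, quantile -1.45) and DTE (-2.83 ± 0.17, quantile -1.85).

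Of 20 transcripts measured, antisense or neighbouring transcripts of these families together with the coding gene FOXL2NB and PAXIP1-AS2, which is named for a gene outside them, 1 was higher and 1 lower under DT, 2 and 2 under E and 0 and 4 under DTE on both scales. Of the 20, 15 were above background in at least 1 group. In deposited values 5% were higher and 5% lower under DT, 15% and 10% under E, and 0% and 45% under DTE. Over all genes these shares were 4.72% and 23.1%, 20.8% and 4.81%, and 4.26% and 60.8%. On the quantile scale they were 20% and 10%, 10% and 20%, and 15% and 20%, against 15.1% and 14.6%, 15.1% and 16.3%, and 20.5% and 22.4%. HOTAIR, from the HOXC cluster, was at least 1.03-fold higher in DT cells (16.1, 12.4 and 11.7, against 8.01, 8.95 and 9.36 in DMSO cells, where it was not well above background; adjusted p = 0.0073). FOXD2-AS1 read 64.6, 63.5 and 63.2 in DT and 40.6, 47.7 and 47.4 in DTE cells, against 176, 181 and 145 in DMSO cells. It fell by 1.39 ± 0.15 under DT (quantile -1.01) and by 1.88 ± 0.15 under DTE (quantile -0.84). LINC01116, near the HOXD cluster, fell under E (26.8, 26 and 32.1, against 41.2, 43.4 and 34.9 in DMSO cells; -0.49 ± 0.14, quantile -0.70). HAGLR, a HOXD antisense transcript, rose under E (33.8, 35.5 and 41.8, against 22, 27 and 20.9 in DMSO cells; 0.67 ± 0.14, quantile 0.32). Whether the probes separate these transcripts from overlapping genes was not tested.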
